A study of Mus musculus with 6 samples.

Results

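Interferon receptors and genes that interferons switch on were followed in CD4+ dendritic cells (DC) of the mouse spleen that had lost the transcription factor Runx3. The members were 48 listed genes, 4 receptor chains and 44 interferon-stimulated genes, and each was represented by the probe set annotated with its symbol alone. A gene counted as measured where its log2 value reached 6.5, the background level, in at least 1 array. Of the 48 genes 39 were measured, out of 9922 measured genes among 19938 that had such a probe set on the array. None of the 48 lay below background. The other 9 had no probe set of their own. Isg15, Oas1g, Ifi47, Ifi204, Igtp, Irgm2 and Gbp2, 7 in all, shared every probe set with another gene, and 2, Ifi44 and Phf11b, were not named in the annotation used here.

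RNA of CD4+ DC from 3 Runx3-/- and 3 WT (Runx3 +/+) male mice aged 6 weeks was hybridised to 6 Affymetrix arrays, 1 mouse to an array. Each of the 3 litters gave a Runx3-/- mouse and a WT littermate, and the replicate number used below is the number of the litter. Splenic DC were enriched on magnetic beads and sorted as CD11c+ MHCII+ cells by CD4 and CD8, and the labels also name an Esam population without stating the gate. Runx3-/- was a germline loss, so DC and all other cells of these mice lacked the gene. All values below are log2 array signals, and a change is the Runx3-/- mean minus the WT mean.

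Type I interferons bind Ifnar1 and Ifnar2, and interferon gamma binds Ifngr1 and Ifngr2. The receptors signal through Janus kinases to Stat proteins. Type I interferons act mainly on promoters with an interferon-stimulated response element (ISRE), to which a complex with Stat2 and Irf9 binds, and interferon gamma acts on those with a gamma-activated site (GAS). The induced genes restrict viruses and intracellular pathogens and in part feed back on the pathway. Plasmacytoid DC are the cells best known for making large amounts of type I interferon, and conventional DC respond to it.

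The promoters of many members hold these response elements, and 8 stretches are printed here to show them in genes of the groups described below. Windows reaching 250 bases before and 50 bases after each start were taken from RefSeq (assembly GRCm38.p6), where 39 of the 48 members had 45 windows. The ISRE core was searched as GAAANNGAA, the GAS core as TTCNNNGAA (its own reverse complement, so counted once), and the RUNX core as TGTGGT or TGCGGT, each on both strands. Of the 41 ISRE cores found in the members 0 shared bases with a GAS core, though neighbouring ISRE cores could overlap each other. Capitals mark the cores in each stretch, which reads 5′ to 3′ along its gene. Ifit1 lies at chr19:34640772-34640821 on the plus strand, Ifit3 at chr19:34583366-34583443 on the plus strand, Oas3 at chr5:120777712-120777742 on the minus strand and Rsad2 at chr12:26456555-26456579 on the minus strand. These 4 show ISRE cores, and in Ifit1 and Oas3 a pair of them overlaps:
Ifit1: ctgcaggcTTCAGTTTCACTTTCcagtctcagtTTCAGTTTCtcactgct
Ifit3: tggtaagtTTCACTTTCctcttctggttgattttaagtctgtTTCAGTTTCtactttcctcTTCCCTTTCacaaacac
Oas3: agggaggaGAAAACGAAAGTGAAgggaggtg
Rsad2: gtccaactTTCATTTTCagaaaaca
The GTPase genes Irgm1 at chr11:48871428-48871458 on the minus strand, Gbp5 at chr3:142496762-142496898 on the plus strand and Gbp7 at chr3:142530222-142530300 on the plus strand hold ISRE cores, and Gbp5 and Gbp7 hold GAS cores too (TTCTCAGAA in both):
Irgm1: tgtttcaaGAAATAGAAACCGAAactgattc
Gbp5: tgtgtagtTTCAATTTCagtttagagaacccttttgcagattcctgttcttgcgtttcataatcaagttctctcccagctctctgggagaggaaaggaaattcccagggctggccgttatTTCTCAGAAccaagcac
Gbp7: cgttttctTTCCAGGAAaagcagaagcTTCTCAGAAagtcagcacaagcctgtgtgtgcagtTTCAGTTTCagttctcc
Cmpk2, at chr12:26469112-26469210 on the plus strand, had no ISRE or GAS core in its window and is shown for its 2 RUNX cores:
Cmpk2: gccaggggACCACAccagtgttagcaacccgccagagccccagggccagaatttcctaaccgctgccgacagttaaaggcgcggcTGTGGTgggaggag

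An ISRE core was present in 24 of the 39 members found and in 57.8% of their windows, against 8.56% of all 32851 windows of the table. A GAS core was present in 11 members and 24.4% of windows, against 8.3% of all windows. A RUNX core was present in 10 members and 24.4% of windows, close to the 22.4% of all windows. The ISRE cores stood in 7 of 8 GTPase genes and 8 of 13 genes of RNA-binding or nucleotide-directed proteins, whereas 0 of the 4 receptor genes held one. A match is a description of the letters only, and a window without one says nothing of more distant sites. Of the 21 promoters found for members that were highest in the array of Runx3-/- 3 (described below) 11 held an ISRE core, and of the 10 found for the other measured members 6 did.

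**Figure D1:**
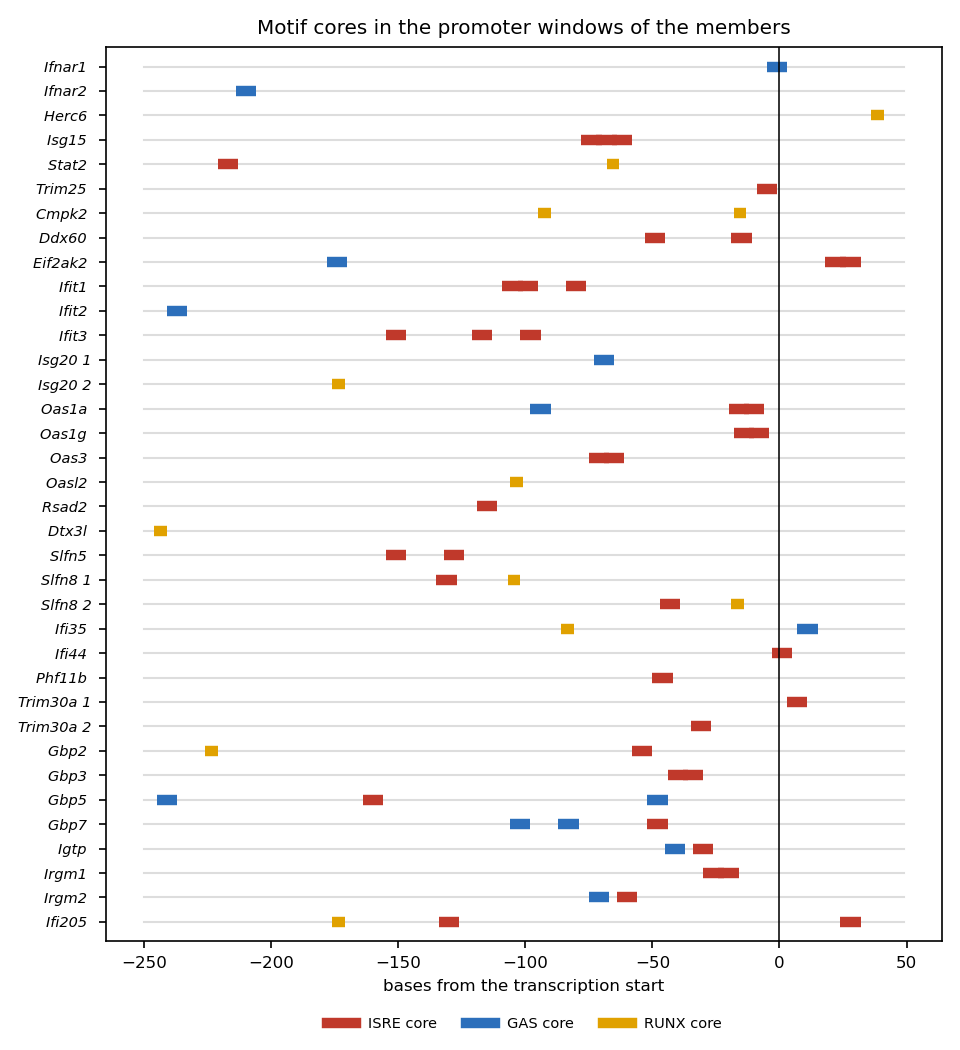
Position of ISRE (red), GAS (blue) and RUNX (yellow) cores in bases from the transcription start, for each member window that holds at least 1 of them; a number after a name tells apart windows of the same gene. Most ISRE cores lie before the start, and in Eif2ak2 a pair lies after it.

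Runx3 itself, which checks the labels, had log2 values of 9.16, 9.30 and 9.16 in Runx3-/- 1, 2 and 3, against 11.24, 11.22 and 11.11 in WT 1, 2 and 3. All 3 Runx3-/- values lay below the WT values, and the change was -1.98 ± 0.08 (SE, n = 3 each; adjusted p = 0.0027 by limma). Permuting the 6 arrays exactly gave a two-sided p of 0.1, and groups of 3 can give none smaller. A replicate block for litter raised the adjusted p to 0.061, and without WT 1 it was 0.053. The arrays were alike in level, with medians of 6.57 to 6.65 and 50.7% to 51.3% of probe sets at or above background.

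None of the listed receptors and stimulated genes passed the test between Runx3-/- and WT DC. Of the 39 members measured 0 had an adjusted p of 0.05 or less, and the lowest was 0.242, for Gbp5 (limma, Benjamini-Hochberg over all 19149 tested probe sets, of which 1.56% passed, 0.856% as higher and 0.700% as lower). At an unadjusted p of 0.05 there were 3 members, Gbp5, Irgm1 and Parp9, all higher in Runx3-/- DC, where 15.9% of all probe sets passed at that level, 5.59% as higher. The methods' analysis of variance likewise passed 0 members after adjustment and 1, Ifi35, before it. The study's thresholds, a change of 1.5-fold at an unadjusted p of 0.05, were met by 0 members with the limma p, against 3.95% of all probe sets. The study itself took its p from an analysis of variance, with which 0 members met these thresholds too. Changes ran between -0.28 for Usp18 and 0.71 for Rsad2. They were positive for 31 members and negative for 8, with a median of 0.20, where the median of all tested probe sets was -0.04 and 40.7% were positive.

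The spread between arrays was wide in 1 group. The array of Runx3-/- 3 held the highest of the 6 values for 28 of the 39 members (71.8%), against 17.9% of all tested probe sets. Runx3-/- 1 held it for 5 members, WT 1 for 4 and WT 2 for 2. For 17 members (43.6%) Runx3-/- 3 exceeded each of the other 5 arrays by at least 0.5, which held for 0.778% of all tested probe sets. The median SD of a member was 0.352 among Runx3-/- arrays and 0.0997 among WT arrays, where all probe sets had 0.129 among Runx3-/- and 0.117 among WT arrays. Values of the 3 Runx3-/- arrays all lay above WT for 7 members, among them Cmpk2, which reached background in Runx3-/- arrays only, and all below for 1. Together these are 20.5% of the members, and 22.4% of all probe sets had groups that did not overlap, 7.48% with Runx3-/- above WT and 14.9% below.

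**Figure D2:**
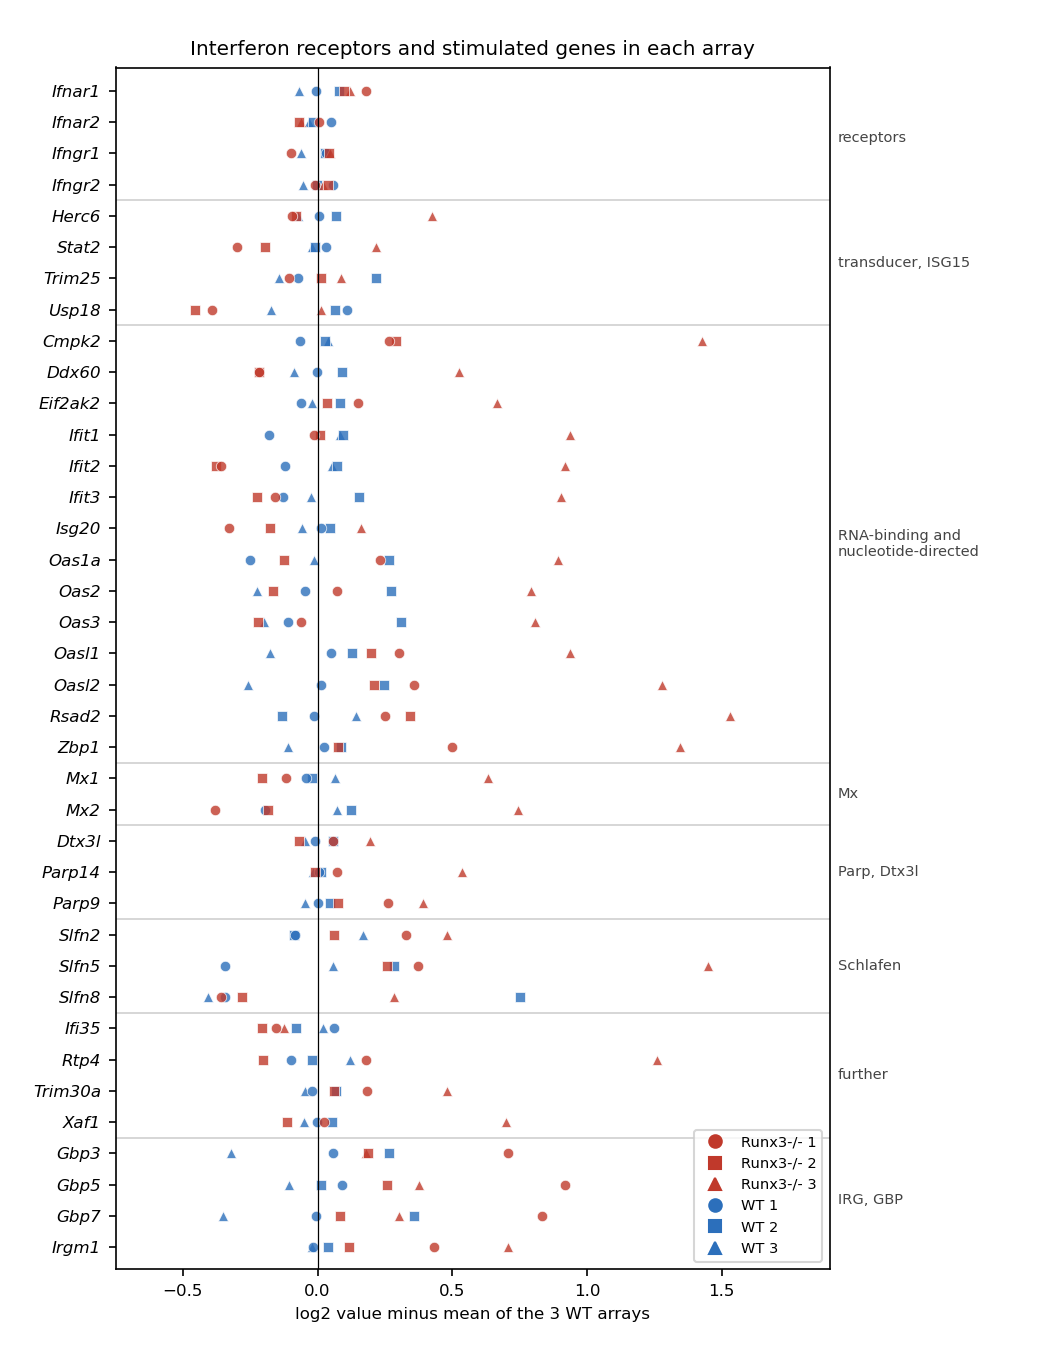
Log2 value of each measured member minus the mean of its 3 WT arrays (x axis), with members grouped by role and Ifi205 left out because its values span more than the axis; red, Runx3-/-, blue, WT, with a circle, square or triangle for litter 1, 2 or 3. The red triangle of Runx3-/- 3 stands to the right in most rows, whereas the receptors at the top keep all arrays close together.

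The interferon receptors varied little between arrays. Ifnar1, which forms the type I receptor with Ifnar2, had 11.00, 10.92 and 10.94 in Runx3-/- 1, 2 and 3, against 10.82, 10.90 and 10.75 in WT 1, 2 and 3. The Runx3-/- values lay just above the WT values, by 0.13 ± 0.07 on average (SE; adjusted p = 0.434). Ifnar2 had 12.35, 12.28 and 12.29 in Runx3-/- DC and 12.40, 12.33 and 12.32 in WT DC, overlapping groups with a change of -0.04 (95% interval -0.20 to 0.12; adjusted p = 0.809). Of the chains that bind interferon gamma, Ifngr1 had 12.81, 12.95 and 12.95 in Runx3-/- DC and 12.94, 12.94 and 12.85 in WT DC. The groups overlapped in full, and the interval of the difference ran between -0.19 and 0.18. Ifngr2 had 11.97, 12.02 and 12.00 in Runx3-/- DC and 12.04, 11.98 and 11.93 in WT DC, with an interval between -0.14 and 0.18. The SD among Runx3-/- arrays had a median of 0.0425 over the 4 receptor chains, against 0.398 over the 35 measured induced genes.

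Of the genes for the transducer Stat2 and the ISG15 system, which couples the ubiquitin-like Isg15 to proteins and removes it, 4 were measured and 3 had a lower mean in Runx3-/- DC. Usp18, which takes Isg15 off proteins and dampens type I receptor signalling, had 10.16, 10.09 and 10.56 in Runx3-/- 1, 2 and 3, against 10.65, 10.61 and 10.37 in WT 1, 2 and 3. The groups overlapped because Runx3-/- 3 was high and WT 3 low, and the change was -0.28 ± 0.15 (SE; adjusted p = 0.428). Stat2 had 10.49, 10.59 and 11.00 in Runx3-/- DC and 10.82, 10.78 and 10.77 in WT DC. Runx3-/- 1 and 2 lay below every WT array and Runx3-/- 3 above them, with a change of -0.09 ± 0.14 (adjusted p = 0.799). Without the Runx3-/- 3 array the change was -0.42 for Usp18 and -0.25 for Stat2 (adjusted p = 0.228 and 0.285). Herc6, the main mouse ligase for Isg15, had a change of 0.08 and Trim25, a ubiquitin ligase of RNA sensing, of -0.002, both with overlapping groups.

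All 14 measured genes of RNA-binding or nucleotide-directed antiviral proteins had their highest value in Runx3-/- 3. In that array they exceeded the mean of the other Runx3-/- arrays by 0.41 to 1.29, with a median of 0.94. Rsad2 (viperin), a radical SAM enzyme that makes a chain-terminating nucleotide, had 7.40, 7.50 and 8.68 in Runx3-/- 1, 2 and 3, against 7.14, 7.02 and 7.30 in WT 1, 2 and 3. Every Runx3-/- value lay above every WT value, and the change of 0.71 ± 0.34 (SE; adjusted p = 0.381) was the largest of the 39. Cmpk2, a nucleotide kinase that supplies viperin's substrate, starts 12763 bases from Rsad2 and runs the opposite way. It had 6.64, 6.67 and 7.80 in Runx3-/- DC, against 6.31, 6.41 and 6.41 in WT DC. All WT arrays were below the background of 6.5, so Cmpk2 was tested only through its Runx3-/- arrays, and the measured change was 0.66 ± 0.31 (adjusted p = 0.375). Both genes kept a positive change without Runx3-/- 3, of 0.30 for Rsad2 and 0.28 for Cmpk2 (adjusted p = 0.350 and 0.242).

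Ifit1 and Ifit2 bind viral RNA that lacks the host's cap modification or associate with such complexes, and both were named after their values had been seen. Ifit1 had 8.12, 8.14 and 9.07 in Runx3-/- 1, 2 and 3, against 7.95, 8.22 and 8.21 in WT 1, 2 and 3. Ifit2 had 8.01, 7.99 and 9.29 in Runx3-/- DC, against 8.24, 8.44 and 8.42 in WT DC. In Ifit2 Runx3-/- 1 and 2 were the lowest of the 6 arrays and Runx3-/- 3 the highest, so the mean change was 0.06 ± 0.35 (SE; adjusted p = 0.953). Without Runx3-/- 3 it was -0.37 (adjusted p = 0.206), the lowest p of any member in that setting. The change of Ifit1, 0.31 with all arrays, was -0.001 without that array.

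Zbp1, a sensor of Z-form nucleic acids, and the 2'-5'-oligoadenylate synthetase-like genes Oasl1 and Oasl2 were also chosen after seeing their values. Zbp1 had 9.72, 9.29 and 10.56 in Runx3-/- 1, 2 and 3, against 9.24, 9.31 and 9.11 in WT 1, 2 and 3. Oasl2 had 10.54, 10.39 and 11.46 in Runx3-/- DC, against 10.19, 10.43 and 9.92 in WT DC. In both genes Runx3-/- 2 lay among the WT values and Runx3-/- 3 far above them. Oasl1, which restrains translation of Irf7, had 7.24, 7.13 and 7.87 in Runx3-/- DC, against 6.98, 7.06 and 6.76 in WT DC, groups that did not overlap. The changes were 0.64 for Zbp1, 0.61 for Oasl2 and 0.48 for Oasl1 (adjusted p = 0.381, 0.384 and 0.335). Ifit3, Oas1a, Oas2, Oas3, Eif2ak2 (the RNA-activated kinase PKR), the exonuclease Isg20 and the helicase Ddx60 had changes of -0.11 to 0.33, all with overlapping groups. Oas1a has near-identical copies, and 1 further probe set named it together with another gene, so its signal is not certain to be its own.

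The dynamin-like Mx proteins, which block virus replication, followed the Ifit genes. Mx1 had 8.60, 8.51 and 9.35 in Runx3-/- 1, 2 and 3, against 8.68, 8.70 and 8.79 in WT 1, 2 and 3. Mx2 had 7.20, 7.40 and 8.33 in Runx3-/- DC, against 7.39, 7.71 and 7.66 in WT DC. In both genes 1 array, Runx3-/- 3, was highest, and Runx3-/- 1 lay below every WT array. The changes were 0.10 ± 0.22 and 0.06 ± 0.29 (SE; adjusted p = 0.867 and 0.945), and without that array they were -0.16 and -0.28.

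Parp9, Parp14 and Dtx3l, which act together in ADP-ribosylation and ubiquitination downstream of interferon, had positive changes and were all highest in Runx3-/- 3. Parp9 had 10.24, 10.05 and 10.37 in Runx3-/- 1, 2 and 3, against 9.98, 10.02 and 9.93 in WT 1, 2 and 3. The groups did not overlap and Runx3-/- 2 was nearest to WT, with a change of 0.24 ± 0.10 (SE; adjusted p = 0.303). Parp14 had 10.54, 10.45 and 11.00 in Runx3-/- DC, against 10.47, 10.48 and 10.45 in WT DC. There only Runx3-/- 3 stood well clear of the WT arrays, and the change was 0.20 ± 0.15 (adjusted p = 0.576). Dtx3l had a change of 0.06.

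The Schlafen genes, a family of growth and antiviral regulators with near-identical mouse copies, were uneven. Slfn5 had 9.69, 9.57 and 10.77 in Runx3-/- 1, 2 and 3, against 8.97, 9.60 and 9.37 in WT 1, 2 and 3. The groups overlapped at Runx3-/- 2 and WT 2, and the change was 0.69 ± 0.34 (SE; adjusted p = 0.392). Slfn2 had 11.15, 10.88 and 11.30 in Runx3-/- DC and 10.74, 10.73 and 10.99 in WT DC, overlapping groups with a change of 0.29 ± 0.13 (adjusted p = 0.362). Slfn2 was higher in the Runx3-/- mouse in 3 of 3 litters, by 0.41, 0.15 and 0.31. Slfn8 had a change of -0.12, with its highest value, 10.18, in WT 2.

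Among the further induced genes Rtp4, a chaperone of receptor transport, had 10.39, 10.00 and 11.46 in Runx3-/- 1, 2 and 3, against 10.11, 10.19 and 10.33 in WT 1, 2 and 3. Runx3-/- 2 was the lowest array and Runx3-/- 3 the highest, and the change of 0.41 ± 0.36 (SE; adjusted p = 0.638) was -0.01 without Runx3-/- 3. Trim30a, which dampens Toll-like receptor signalling, had 12.08, 11.95 and 12.37 in Runx3-/- DC, against 11.87, 11.96 and 11.85 in WT DC, with a change of 0.24 ± 0.12 (adjusted p = 0.393). Xaf1, a proapoptotic gene, had a change of 0.20. Ifi35, an interferon-induced leucine zipper protein named after its values had been seen, was the only member whose Runx3-/- values all lay below the WT values. It had 9.76, 9.71 and 9.79 in Runx3-/- DC, against 9.97, 9.83 and 9.93 in WT DC, a change of -0.16 ± 0.07 (adjusted p = 0.341).

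The immunity-related GTPases and guanylate-binding proteins act on the vacuoles of intracellular pathogens and respond strongly to interferon gamma. The measured guanylate-binding genes, Gbp3, Gbp5 and Gbp7, had another order of arrays, whereas Irgm1, the only immunity-related GTPase measured, was highest in Runx3-/- 3. Gbp5 had 10.07, 9.41 and 9.52 in Runx3-/- 1, 2 and 3, against 9.24, 9.16 and 9.04 in WT 1, 2 and 3. All Runx3-/- values lay above the WT values with Runx3-/- 1 highest, and the change was 0.52 ± 0.18 (SE; 95% interval 0.08 to 0.95; adjusted p = 0.242). Gbp3 had 10.13, 9.61 and 9.61 in Runx3-/- DC and 9.49, 9.69 and 9.11 in WT DC. Gbp7 had 10.24, 9.49 and 9.71 in Runx3-/- DC and 9.40, 9.76 and 9.06 in WT DC. Gbp3 and Gbp7, named after their values had been seen, were also highest in Runx3-/- 1 and overlapped WT because WT 2 was high, with changes of 0.36 and 0.41 (adjusted p = 0.460 and 0.490). Guanylate-binding proteins have near-identical copies, and how far these probe sets read a relative was not tested. Irgm1, a regulator of the other immunity-related GTPases, had 11.11, 10.80 and 11.39 in Runx3-/- DC, against 10.66, 10.71 and 10.66 in WT DC. Its groups did not overlap, with Runx3-/- 3 highest and Runx3-/- 2 close to WT, and the change was 0.42 ± 0.15 (adjusted p = 0.256).

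Ifi205, of the PYHIN family of nucleic acid sensors, split the arrays in a way that followed neither genotype nor litter. It had 12.56, 8.75 and 12.50 in Runx3-/- 1, 2 and 3, against 12.09, 12.18 and 8.84 in WT 1, 2 and 3. A Runx3-/- array and a WT array of different litters thus lay more than 3 log2 units below the others, and the change was 0.23 ± 1.34 (SE; adjusted p = 0.953). Slamf8, a surface receptor of myeloid cells that is no member and was chosen for this pattern, had 10.01, 8.28 and 9.71 in Runx3-/- DC and 9.84, 9.54 and 7.64 in WT DC, low in the same 2 mice. PYHIN genes have near-identical copies, and which of them this probe set reads was not tested.

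The probe sets shared by more than 1 gene, through which alone the 7 members named at the start are seen, numbered 6 and had changes of 0.16 to 0.51. Of these 0 passed the test (lowest adjusted p = 0.113). An unadjusted p of 0.05 or less was found for 3, against 15.9% of all tested probe sets, and 5 were highest in Runx3-/- 3, against 17.9%.

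The difference between littermates varied from litter to litter. In litter 3 the Runx3-/- mouse was higher than its WT littermate for 37 of the 39 members, with a median difference of 0.65. In litter 1 it was higher for 24, with a median of 0.12. In litter 2 it was higher for only 10, with a median of -0.13, so that most members were lower in the Runx3-/- mouse of that litter. Over all tested probe sets the medians were -0.05 in litter 1, -0.004 in litter 2 and -0.06 in litter 3. The difference kept 1 sign in 3 of 3 litters for 10 members, 8 positive and 2 negative. That is 25.6% of the members, whereas 43.5% of all probe sets kept 1 sign and 16.0% were positive in all 3 litters.

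**Figure D3:**
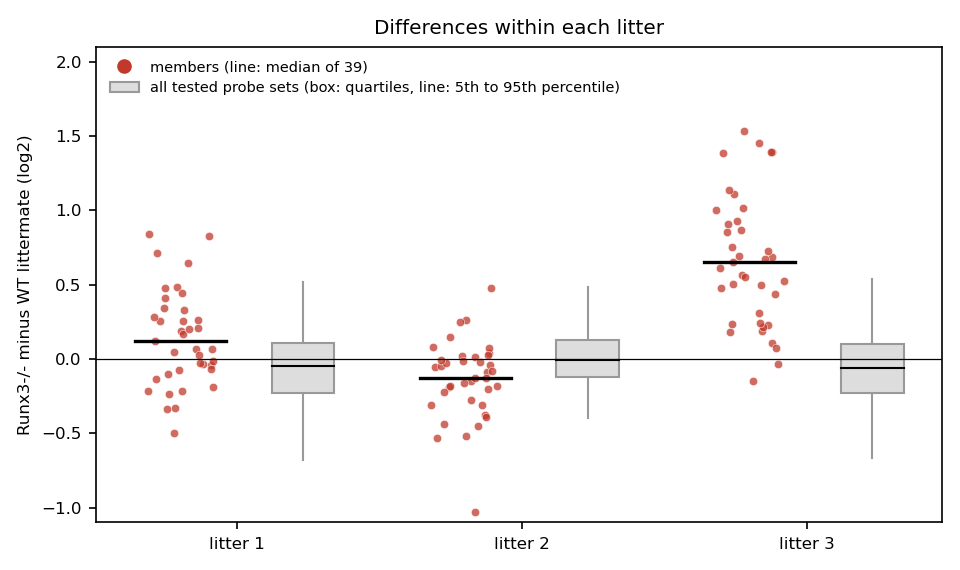
Difference between the Runx3-/- mouse and its WT littermate (log2) in each litter, for the members (red points; Ifi205, at 0.47, -3.43 and 3.66, is off the scale and not drawn) and for all tested probe sets (grey boxes). Most members lie above the grey box in litter 3, and their median lies below 0 in litter 2.

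Without the array of Runx3-/- 3 the members lost their shift. Their median change was then -0.007, with 18 positive and 21 negative (40.9% of all probe sets were positive), and 13 members turned sign. Of the 39 still 0 passed the test, and 8 had an unadjusted p of 0.05 or less, 3 higher (Cmpk2, Rsad2 and Gbp5) and 5 lower (Ddx60, Ifit2, Isg20, Stat2 and Usp18), where 5.13% of all probe sets were higher and 7.76% lower. Cmpk2 was among those tested only through its Runx3-/- arrays. The Mx genes and all 4 genes of the transducer and ISG15 system were then negative. The 4 measured GTPases all stayed positive without that array, with a median of 0.45, against 0.41 with it. Over the whole array, 1 probe set passed without Runx3-/- 3, so a lack of calls in that setting is not particular to the members.

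**Figure D4:**
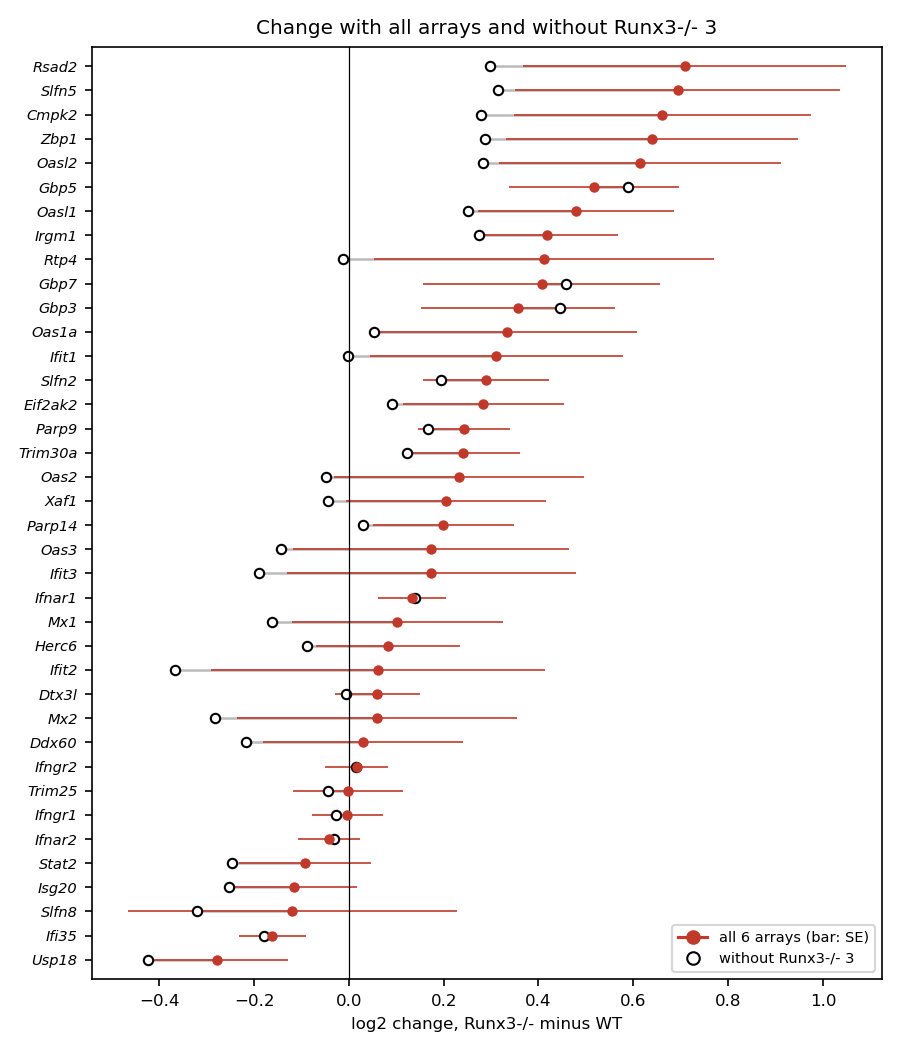
Change of each member (log2, Runx3-/- minus WT) with all 6 arrays (red, with SE) and without Runx3-/- 3 (open circles), ordered by the change over all 6 arrays and without Ifi205. Genes such as Ifit2, Mx2 and Rtp4 cross or reach 0 when the array is left out, whereas Gbp3, Gbp5 and Gbp7 move away from 0.

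Markers of another cell type were high in the same array. Of 8 listed markers of plasmacytoid DC 5 were measured, and all 5 were highest in Runx3-/- 3. One of them, Cox6a2, reached background only in Runx3-/- 2 and 3. Their summed linear signal, with the pair of markers that were below background included, was 1452, 1773 and 3561 in Runx3-/- 1, 2 and 3, against 1283, 1364 and 1375 in WT 1, 2 and 3. Siglech, a surface lectin of these cells, and the chemokine receptor Ccr9 were named after their values had been seen. Siglech had 7.46, 8.18 and 10.18 in Runx3-/- DC, against 7.45, 7.40 and 7.43 in WT DC. Ccr9 had 7.68, 8.05 and 9.35 in Runx3-/- DC, against 7.07, 7.63 and 7.02 in WT DC. In both, Runx3-/- 3 was highest by more than 1 log2 unit and Runx3-/- 2 came next, whereas most members were not high in Runx3-/- 2. Pacsin1 and Dntt stayed below background in every array and 0 of the 5 measured markers passed the test. Fewer or more cells of a type and less or more RNA per cell cannot be told apart in such bulk samples, and the part of these markers in the values of the members was not tested.

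Other marker lists gave a mixed picture. Of 7 markers of CD8+ DC 6 were measured and 5 were highest in Runx3-/- 3, with Itgae below background. Cd8a, one of these 5, reached background in Runx3-/- 3 alone, so its rank was fixed by the filter. Tlr3, another of the 5, was also on the list of other interferon-induced genes described below. Cadm1, an adhesion molecule, passed the test as higher, with a change of 0.99 (adjusted p = 0.013). With the replicate block for litter 0 probe sets of the whole array passed, so neither this call nor the marker calls below held there. Their sums were 2192, 1918 and 2434 in Runx3-/- 1, 2 and 3, against 1719, 1613 and 1526 in WT 1, 2 and 3. The markers of red pulp macrophages were higher in every Runx3-/- array, at sums of 10528 to 12645 in Runx3-/- DC against 3698 to 5505 in WT DC, and 5 of 8 passed the test as higher, with 1 of 8 highest in Runx3-/- 3. All 12 listed genes of the sorted CD4+ DC themselves were measured, with sums of 57093 to 60852 in Runx3-/- DC and 59875 to 63018 in WT DC, and 1 of the 12 passed the test as lower. Monocyte markers (5 of 8 listed measured, Vcan and F13a1 below background, 0 called) had sums of 9344 to 9667 in Runx3-/- DC and 5740 to 7539 in WT DC. B cell markers (4 of 6 measured, Pax5 below background, 0 called) had sums of 2698 to 3031 in Runx3-/- DC and 3172 to 3397 in WT DC. Of the T cell, NK cell and neutrophil lists 1 gene each was measured, and defining genes such as Cd3e, Ncr1 and S100a8 lay below background in all arrays. The part of these lists in the members' values was not tested either.

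Runx3-/- 3 also stood apart in the gene H2-Ea. It encodes the alpha chain of the MHC class II E molecule, which some inbred strains do not express, and had 5.34, 5.44 and 11.21 in Runx3-/- 1, 2 and 3, against 5.25, 5.33 and 5.30 in WT 1, 2 and 3. It was above background in 1 of the 6 mice only, and was chosen after its values had been seen. The labels give no strain for these mice, and the part of this difference in the members' values was not tested.

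**Figure D5:**
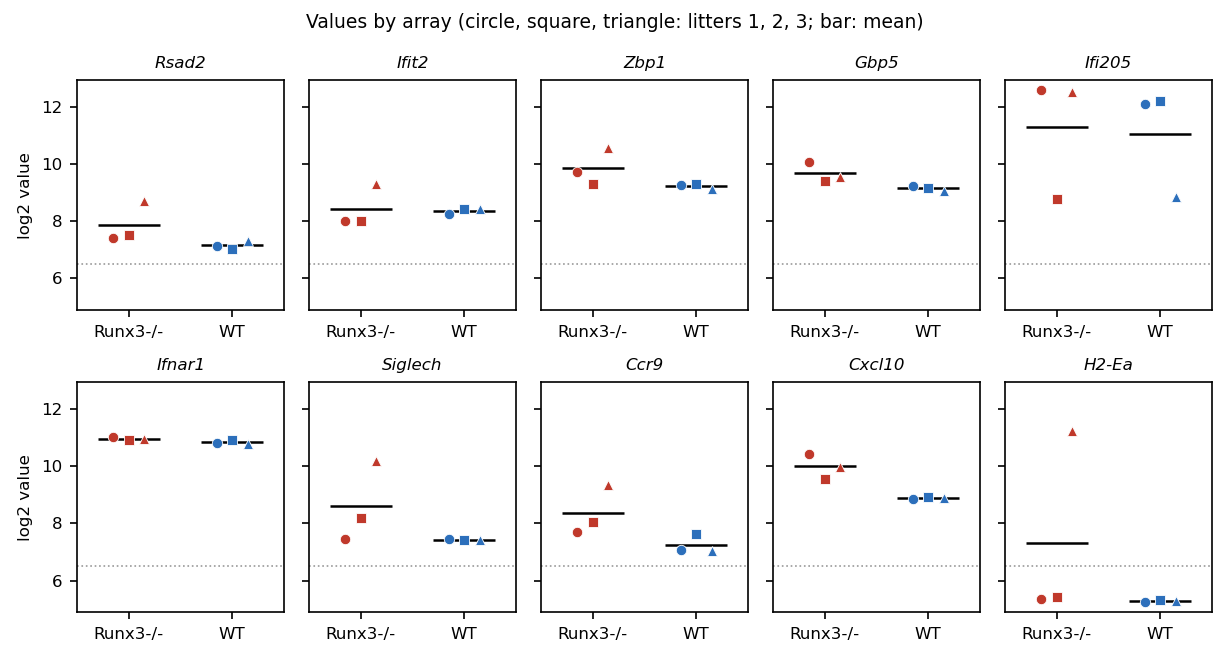
Log2 values by array for 5 stimulated genes, Ifnar1, the plasmacytoid DC markers Siglech and Ccr9, Cxcl10 and H2-Ea, with Runx3-/- (red) left of WT (blue), 1 point per mouse and a bar at the mean; the dotted line is the background of 6.5. Rsad2, Ifit2, Zbp1, Siglech, Ccr9 and H2-Ea are highest in Runx3-/- 3 (triangle), whereas Gbp5 and Cxcl10 are highest in Runx3-/- 1 (circle).

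No other gene of the pathway passed the test. Of 31 listed ligands, kinases, Stat and Irf factors and regulators 22 were measured, and 0 had an adjusted p of 0.05 or less (5 at an unadjusted p of 0.05 or less, where 15.9% of all probe sets passed; lowest adjusted p = 0.052), with a median change of -0.04. The interferon genes Ifnb1, Ifng, Ifne, Ifnk, Ifna2 and Ifna4 lay below background in all 6 arrays. The feedback inhibitor Socs1 did so too, and Ifna1 had no probe set of its own. The genes of smallest p were Ptpn1, a phosphatase that acts on Janus kinases, Tyk2, a kinase of the type I receptor, Ube2l6, the Isg15-conjugating enzyme, and Socs3, a feedback inhibitor. Ptpn1 had 10.89, 10.70 and 10.59 in Runx3-/- 1, 2 and 3, against 10.14, 10.15 and 10.21 in WT 1, 2 and 3, a change of 0.56 ± 0.09 (SE; adjusted p = 0.052). The changes were -0.34 for Tyk2, 0.62 for Ube2l6 and 0.70 for Socs3 (adjusted p = 0.094, 0.117 and 0.202). Socs3 was near background in WT DC, and below it in WT 3, at 6.42. In each of the 4 genes the groups did not overlap, but they were picked by their p. Over the 22 measured genes Runx3-/- values all lay above WT for 4 and all below for 5. Together these are 40.9%, against 22.4% of all probe sets. Irf7, the factor that amplifies type I interferon in plasmacytoid DC, was named after its values had been seen. It had 9.53, 9.22 and 10.39 in Runx3-/- DC and 9.22, 9.64 and 9.41 in WT DC, again highest in Runx3-/- 3.

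Interferon-induced genes outside the members included 3 that rose in Runx3-/- DC. Of 90 listed genes 78 had a probe set and 75 were measured, 3 passed as higher and 0 as lower, where 0.856% of all probe sets passed as higher and 0.700% as lower, and the median change was 0.09. At an unadjusted p of 0.05 or less there were 18, against 15.9% of all probe sets, and 10 met the study thresholds, against 3.95%. Both counts include Iigp1 and Mlkl, which reached background in Runx3-/- arrays only and so were tested only through them. Ifitm1, a membrane protein that hinders virus entry, had 12.37, 12.15 and 12.27 in Runx3-/- 1, 2 and 3, against 10.32, 10.72 and 10.75 in WT 1, 2 and 3. It was 3.18-fold higher in Runx3-/- DC, a change of 1.67 ± 0.14 (SE; adjusted p = 0.013), and its groups did not overlap. Shisa5, a p53-responsive gene, had 11.49, 11.62 and 11.74 in Runx3-/- DC, against 11.05, 11.00 and 10.86 in WT DC (0.64 ± 0.09; adjusted p = 0.037). Cd69, an early activation marker, had 8.07, 7.89 and 7.47 in Runx3-/- DC, against 6.67, 6.67 and 6.20 in WT DC (1.30 ± 0.20; adjusted p = 0.042). Its WT 3 value lay below the background of 6.5 and those of WT 1 and 2 just above it, so the size of this change is uncertain. With the replicate block 0 of the 3 passed, and so did 0 of the list without Runx3-/- 1, without Runx3-/- 3 or without WT 1, whereas 1 or 2 passed without any other array. The chemokine gene Cxcl10 had 10.41, 9.56 and 9.98 in Runx3-/- DC, against 8.85, 8.90 and 8.87 in WT DC. Its groups lay far apart with Runx3-/- 1 highest, as in Gbp5, and the change was 1.11 ± 0.20 (adjusted p = 0.066). Of these 75 genes 38 (50.7%) were highest in Runx3-/- 3 and 15 (20.0%) in Runx3-/- 1, where all probe sets had 17.9% and 14.1%.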

How the data were processed

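The authors made the deposited log2 values in Partek, with probe sets summarised by RMA (robust multichip averaging) after GC correction. The mm9 build is named in the submitters' processing notes, which give no versions. RMA brings arrays close to 1 distribution, so a shift shared by most genes would be largely hidden. The deposited arrays still differed slightly, with medians of 6.57 to 6.65. The median change of all tested probe sets was -0.035 as deposited, -0.006 after quantile normalization and 0.006 after median centring. Shares of all probe sets that were positive or lay above or below WT carry this small offset. An exon array is named in the methods, but the identifiers belong to gene-level probe sets. Labels and methods also differ on the RNA kit.

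Values were used as deposited. Of 35399 probe sets 19149 reached a log2 value of 6.5, the study's background level, in at least 1 array and were tested with limma 3.58.1 in R 4.3.3 (lmFit and eBayes, two-sided, genotype alone), with Benjamini-Hochberg adjustment over all of them at a threshold of 0.05. A gene was represented by its probe set of highest mean, and all 39 Entrez numbers matched RefSeq (GRCm38.p6), which changed 0 symbols. Coordinates are those of GRCm38.p6 and were used for promoters only. Replicates were separate mice, and the number of arrays limits the precision. The script was tested on simulated data.

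The labels give litters. Deviations from group means correlated within litters 1, 2 and 3 at 0.158, 0.102 and 0.246, and between arrays of different litters at -0.23 to 0.103. Mice of 1 number share a litter, so the numbers pair the samples, and litter as a block was an alternative, as were other normalizations, filters, fits and leaving out each array (14 in all).

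The members and lists were chosen with earlier results of these data known. Values of every array are given for the receptors, for the 2 members of each role with the largest change, and for the genes of the further lists that passed the test or had the 4 smallest p. Genes chosen after their values were seen are named as such.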

Additional observations from a re-analysis of the deposited data

How the results depend on the processing

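Under each of 14 alternatives 0 members passed the adjusted threshold, higher or lower. The count of members at an unadjusted p of 0.05 or less, 3 as reported, was 5 with median centring and 1 with the methods' analysis of variance, and 1 to 9 when an array was left out. Leaving out 1 array moved the median change of the members between -0.007 and 0.36, the count of positive changes between 18 and 34, the count with groups that did not overlap between 8 and 18, and the count at the study thresholds between 0 and 5. The lowest median and the 18 positive changes came without Runx3-/- 3, and the 18 members with groups that did not overlap, the 9 at an unadjusted p and the 5 at the study thresholds without Runx3-/- 2. In that setting 3466 of all 19099 tested probe sets had an unadjusted p of 0.05 or less. The other counts have no share of all probe sets beside them. Groups of 2 against 3 arrays also separate more readily than 3 against 3, so these counts are no result about the members. Of the pathway list 1 gene passed with median centring, with the filter in 3 arrays and with trend and robust variances, and 0 to 1 without 1 array. Of the other interferon-induced genes 0 passed with the analysis of variance, 5 with trend and robust variances, and 0 to 2 without 1 array.

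With litter as a replicate block 1 member passed the study thresholds, 0 of the other interferon-induced genes and 0 of 19149 probe sets passed the adjusted threshold (298 without the block), and Runx3 kept its change of -1.98 with an adjusted p of 0.061. The block changed no other call. Over all probe sets 6 passed with the analysis of variance and 0 to 205 without 1 array. The change of Runx3 ran between -2.03 and -1.96 without 1 array.

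Median centring turned the sign of 2 members, among them Ifngr1, to 0.037, and leaving out Runx3-/- 3 that of 13, among them Ifit3, Oas2, Oas3, Xaf1, Dtx3l, Ddx60 and Herc6. Of the members whose every array is given, the changes that turned sign without 1 array at a time ran between -0.034 and 0.045 for Ifngr1, -0.011 and 0.045 for Ifngr2, -0.25 and 0.010 for Stat2, -0.86 and 1.49 for Ifi205, -0.16 and 0.26 for Mx1, -0.28 and 0.28 for Mx2, -0.012 and 0.72 for Rtp4, -0.0013 and 0.47 for Ifit1, and -0.37 and 0.28 for Ifit2. With 3 mice in a group and 1 of them far from the others, the members' intervals are wide.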
